A study of Mus musculus with 8 samples.

Results

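Mitochondria in cultured mouse fat cells are reshaped by a small set of proteins, and the transcripts of 10 of them were examined here. Mfn1, Mfn2 and Opa1 are on the fusion side, and Oma1, whose protease halts fusion by cutting OPA1, was grouped with them. Dnm1l, Fis1, Mff, Mief1 and Mief2 are on the fission side, and Pink1 encodes a damage sensor. The 10 genes were chosen by name, and each of the 10 names matched 1 row of the 22962 genes in the deposited table. Stromal vascular fraction cells from the gonadal fat of wild-type mice had been differentiated in culture, and the labels call them mature adipocytes. Libraries labelled DMSO (the solvent, n = 4) were compared with libraries labelled DoxSa (n = 4), treated on day 6. All 8 libraries thus shared the WT genotype, the tissue and the culture. DoxSa is not spelled out in the labels, and the series title concerns 1-deoxysphingolipids, which form when serine palmitoyltransferase takes alanine in place of serine. The sources used here give neither its dose, nor the length of exposure, nor the age of the animals. Nothing in the labels ties the libraries of a group to separate cultures or mice. The p-values therefore cover only the spread among these libraries, which may be technical.

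Mitochondria fuse and divide continuously. The mitofusins, encoded by Mfn1 and Mfn2, are GTPases that tether and merge outer membranes, and the dynamin-like GTPase encoded by Opa1 merges inner membranes and shapes cristae. Division is carried out by another dynamin-like GTPase, DRP1, the product of Dnm1l, which adaptors on the outer membrane recruit from the cytosol. When the inner membrane loses its potential, the protease encoded by Oma1 cuts OPA1, which halts fusion, and the kinase PINK1 accumulates on the outer membrane and marks the organelle for removal. In fat cells the shape of the mitochondrial network accompanies changes in lipid storage and fat burning. Much of this control acts on the proteins (cleavage, phosphorylation, recruitment), which transcript levels do not report.

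None of the 10 genes passed the test between DoxSa and DMSO, where 5.9% of the 12060 tested genes did (3.88% higher and 2.02% lower). The test was limma on log2(FPKM + 1) with Benjamini-Hochberg adjustment over all tested genes, and a gene was called at an adjusted p under 0.05. FPKM counts the reads of a gene relative to its length and to the assigned reads of the library. Adjusted p for the 10 genes lay between 0.171 (Pink1) and 0.867 (Mff). The 95% interval of each of the 10 genes lay between -0.18 and 0.22 on the log2(FPKM + 1) scale. As a change of FPKM + 1 this was between -11.8% and 16.4%. The added 1 compresses genes of low level, so their bounds in FPKM are wider. With a pseudocount of 0.1 FPKM the interval of Oma1 reached 0.32, and by voom on recovered reads that of Mief2 reached -0.29. Only 1 gene, Pink1, had groups that did not overlap, all DoxSa libraries being below all DMSO libraries, which held for 4.71% of the tested genes, with 7.8% apart in the other direction. At an unadjusted p under 0.05, Pink1 and Dnm1l passed, 2 of 10, where 19.8% of all tested genes did.

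**Figure D1:**
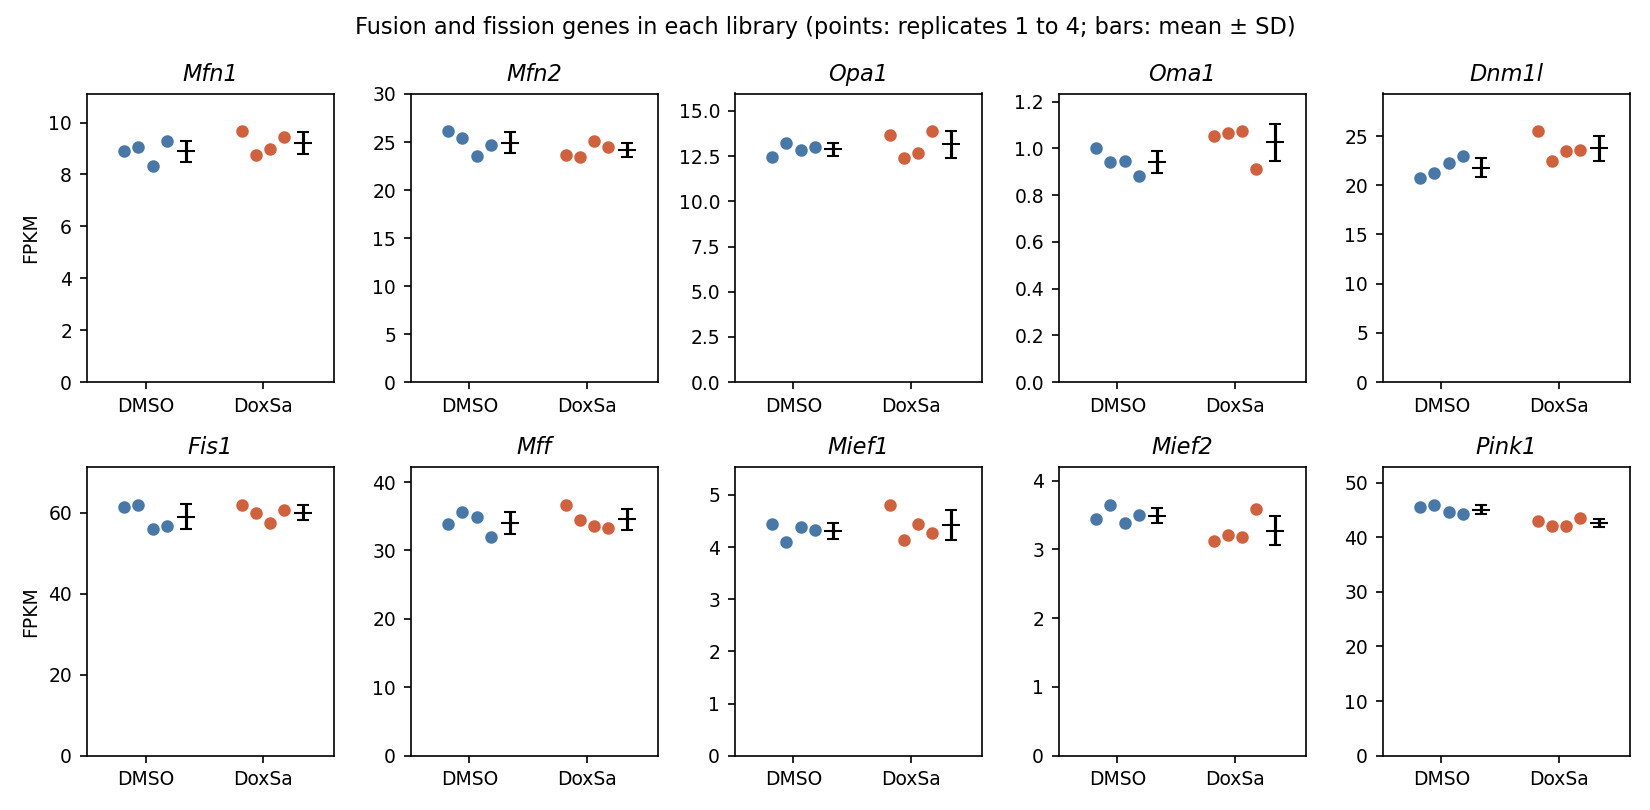
Level of each of the 10 genes in FPKM (vertical axis, starting at 0, scale differs by gene) in the 4 DMSO (blue) and 4 DoxSa (orange) libraries, 1 point per library in the order of replicate 1 to 4, with the mean ± SD in black. The Pink1 points of DoxSa, at 42.1 to 43.4 FPKM, lie below those of DMSO, at 44.2 to 46.0 FPKM, and the groups overlap for the other genes.

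By level, all 10 genes were expressed and passed the minimum mean of 0.5 FPKM. Averaged over the 8 libraries, Fis1 was highest at 59.6 FPKM, followed by Pink1 at 43.8, Mff at 34.3, Mfn2 at 24.5, Dnm1l at 22.8, Opa1 at 13.01, Mfn1 at 9.05, Mief1 at 4.36, Mief2 at 3.38 and Oma1 at 0.984 FPKM. This order held in every library for every pair of neighbours except Mfn2 and Dnm1l, whose ranges overlapped and whose order held in 7 of 8 libraries. Fis1 stood above 91.0% of the tested genes in mean FPKM and Oma1 above 8.71%. The low rank of Oma1 rests in part on the gene length used in the scaling. That length, recovered from the steps of the values, was 12926 bases for Oma1, the longest of the 10, and 1102 bases for Fis1, the shortest. In reads, Oma1 had 468 to 568 per library, Mief2 322 to 374, Fis1 2515 to 2826 and Mfn2, with the most, 5378 to 6170.

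Among the fusion genes, Mfn1 measured 8.92, 9.05, 8.31 and 9.28 FPKM in DMSO 1 to 4 and 9.67, 8.75, 8.97 and 9.46 FPKM in DoxSa 1 to 4. DMSO 3 was the lowest of the 8 libraries and DoxSa 1 the highest, and the groups overlapped between them. The means were 8.89 ± 0.413 FPKM (DMSO) and 9.21 ± 0.426 FPKM (DoxSa, SD, n = 4 each), which gave a log2 fold change of 0.046 ± 0.046 (SE, 95% interval -0.055 to 0.15, limma adjusted p = 0.649).

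Mfn2, the second mitofusin, which also tethers mitochondria to the endoplasmic reticulum, measured 26.1, 25.4, 23.5 and 24.7 FPKM in DMSO 1 to 4. In DoxSa 1 to 4 it measured 23.6, 23.4, 25.1 and 24.5 FPKM. DMSO 3 lay among the low DoxSa libraries and DoxSa 3 among the DMSO libraries. The log2 fold change was -0.043 ± 0.040 (SE, 95% interval -0.13 to 0.046, limma adjusted p = 0.624). Mfn2 was the more abundant mitofusin in every library, with a ratio of Mfn2 to Mfn1 FPKM of 2.66 to 2.93 in DMSO and 2.44 to 2.80 in DoxSa.

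Opa1 measured 12.4, 13.2, 12.8 and 13.01 FPKM in DMSO 1 to 4 and 13.7, 12.4, 12.6 and 13.9 FPKM in DoxSa 1 to 4. The DoxSa libraries included both the lowest and the highest value of the 8. The log2 fold change was 0.027 ± 0.044 (SE, 95% interval -0.070 to 0.12, limma adjusted p = 0.805), and its sign turned with quantile normalization (-0.0034).

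Oma1, the gene of the protease that cuts OPA1, measured 1.00, 0.941, 0.945 and 0.884 FPKM in DMSO 1 to 4. In DoxSa 1 to 4 it measured 1.05, 1.07, 1.07 and 0.910 FPKM. The first 3 DoxSa libraries lay above all DMSO libraries, and DoxSa 4 lay below 3 of the 4. The log2 fold change was 0.060 ± 0.051 (SE, 95% interval -0.051 to 0.17, limma adjusted p = 0.577). A pseudocount of 1 compresses a gene of this level. With a pseudocount of 0.1 FPKM the log2 fold change of Oma1 was 0.11 (adjusted p = 0.589), over 1.5 times as large and still without a call.

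Dnm1l, the gene of the division GTPase, had the largest estimate of the 10 as tested here, but not by voom, where Mief2 (-0.11) exceeded it in size (0.10), nor with quantile normalization, where Pink1 (-0.096) did (0.094). It measured 20.7, 21.3, 22.2 and 22.9 FPKM in DMSO 1 to 4 and 25.5, 22.4, 23.5 and 23.6 FPKM in DoxSa 1 to 4. Of the DoxSa libraries, 3 lay above all DMSO libraries, and DoxSa 2 lay below DMSO 4. The means were 21.8 ± 0.990 FPKM (DMSO) and 23.7 ± 1.28 FPKM (DoxSa, SD, n = 4 each), which gave a log2 fold change of 0.12 ± 0.046 (SE, 95% interval 0.016 to 0.22). The unadjusted limma p was 0.0266 and the adjusted p 0.180, so the difference did not pass the test. Without DoxSa 1, the highest library, the log2 fold change was 0.084 (adjusted p = 0.377). Set against Mfn2, its neighbour in level, Dnm1l stood at 0.792 to 0.947 times the FPKM of Mfn2 in DMSO and at 0.936 to 1.08 times in DoxSa, with overlapping ranges.

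The outer membrane adaptors of DRP1 showed no call. Fis1 encodes a tail-anchored protein of the outer membrane. It measured 61.4, 62.0, 56.1 and 56.8 FPKM in DMSO 1 to 4 and 62.0, 60.0, 57.5 and 60.7 FPKM in DoxSa 1 to 4. All DoxSa libraries lay within the DMSO range, and the log2 fold change was 0.024 ± 0.042 (SE, 95% interval -0.067 to 0.12, limma adjusted p = 0.812).

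Mff, the gene of the mitochondrial fission factor and a main receptor of DRP1, measured 33.8, 35.6, 34.9 and 31.9 FPKM in DMSO 1 to 4. In DoxSa 1 to 4 it measured 36.7, 34.5, 33.6 and 33.3 FPKM. DoxSa 1 was above all DMSO libraries and the other 3 lay among them. The log2 fold change was 0.019 ± 0.043 (SE, 95% interval -0.076 to 0.11, limma adjusted p = 0.867). Its sign turned with quantile normalization (-0.0035), without DMSO 4 (-0.011) and without DoxSa 1 (-0.0096).

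Mief1 and Mief2 encode a pair of related outer membrane adaptors that recruit DRP1. Mief1 measured 4.44, 4.09, 4.38 and 4.33 FPKM in DMSO 1 to 4 and 4.81, 4.14, 4.44 and 4.28 FPKM in DoxSa 1 to 4. DoxSa 1 was again the highest library, DoxSa 3 lay level with the highest DMSO library, and DoxSa 2 and 4 lay among the DMSO values. The log2 fold change was 0.028 ± 0.050 (SE, 95% interval -0.082 to 0.14, limma adjusted p = 0.825), and it was -0.0069 without DoxSa 1.

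Mief2 measured 3.43, 3.65, 3.39 and 3.49 FPKM in DMSO 1 to 4 and 3.12, 3.22, 3.18 and 3.59 FPKM in DoxSa 1 to 4. Here DoxSa 1 to 3 lay below all DMSO libraries and DoxSa 4 lay above 3 of them. The log2 fold change was -0.073 ± 0.049 (SE, 95% interval -0.18 to 0.035, limma adjusted p = 0.463). The ratio of Mief1 to Mief2 FPKM was 1.12 to 1.29 in DMSO and 1.19 to 1.54 in DoxSa.

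**Figure D2:**
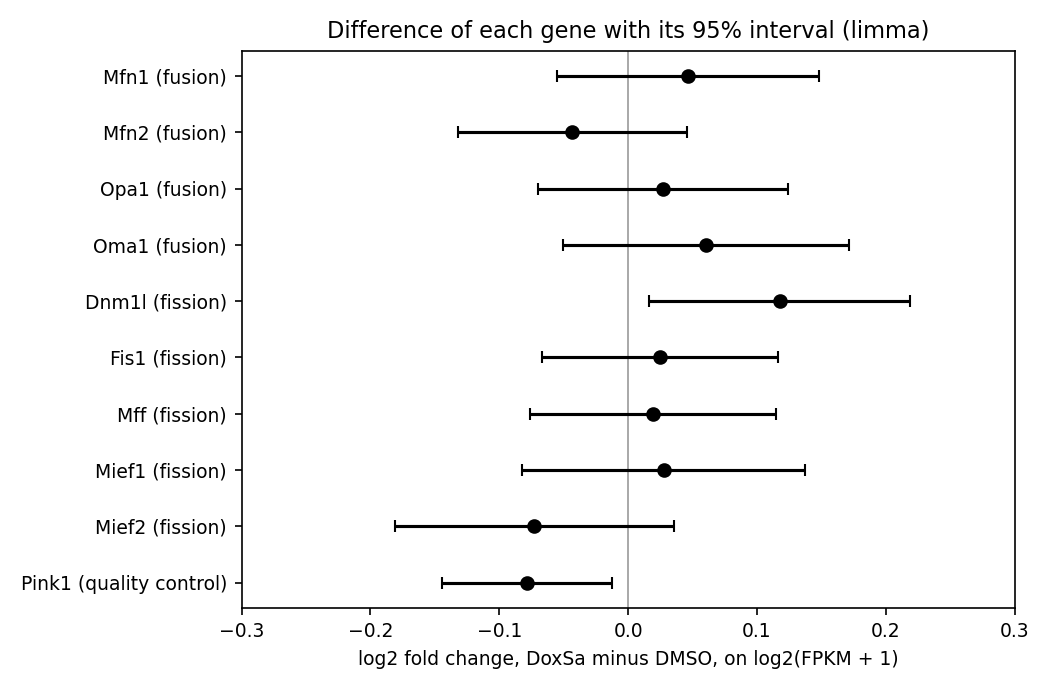
Log2 fold change of each gene, DoxSa minus DMSO, on the log2(FPKM + 1) scale (horizontal axis), with its 95% interval from limma (bars), n = 4 libraries per group. Brackets give the group of each gene, and Oma1 is grouped under fusion although its protease halts fusion. The intervals of Dnm1l (0.016 to 0.22) and Pink1 (-0.14 to -0.012) leave out 0 before adjustment for the number of genes tested, and those of the other genes include it.

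Pink1 was the member with the smallest adjusted p and the least spread. It measured 45.4, 46.0, 44.6 and 44.2 FPKM in DMSO 1 to 4 and 42.9, 42.1, 42.1 and 43.4 FPKM in DoxSa 1 to 4. Every DoxSa library was below every DMSO library, and the closest were DMSO 4 and DoxSa 4. The means were 45.1 ± 0.787 FPKM (DMSO) and 42.6 ± 0.674 FPKM (DoxSa, SD, n = 4 each). This gave a log2 fold change of -0.079 ± 0.030 (SE, 95% interval -0.14 to -0.012), or a difference of -5.30% in FPKM + 1. The unadjusted limma p was 0.0241 and the adjusted p 0.171, which did not pass the test. Over 18 alternative settings its log2 fold change lay between -0.099 and -0.069 and its adjusted p between 0.0864 and 0.336.

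The genes whose pattern over the 8 libraries was most like that of Pink1, among 7098 protein coding genes that averaged 5 FPKM or more, were Tef (Pearson r = 0.975), Cidec (r = 0.974) and Unc119 (r = 0.973). Tef encodes a transcription factor of the PAR bZIP family, Cidec a lipid droplet protein of fat cells and Unc119 a carrier of lipid-modified proteins. The 8 points share their libraries and the 2 groups, and these values are a description. Cidec measured 113.8 to 119.4 FPKM in DMSO and 110.9 to 113.4 FPKM in DoxSa, and its log2 fold change was -0.069 (limma adjusted p = 0.217). Unc119 measured a mean of 31.5 FPKM in DMSO and 28.5 FPKM in DoxSa and fell by 0.14 on the log2 scale (limma adjusted p = 0.0438).

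Across libraries the 10 genes did not move as a block. DoxSa 1 held the highest value of 4 of them (Mfn1, Dnm1l, Mff and Mief1) and the lowest of Mief2, and DMSO 2 held the highest value of 3 (Fis1, Mief2 and Pink1) and the lowest of Mief1. The spread within groups, as a share of the mean, ran from 1.67% for Pink1 to 6.53% for Oma1. For 9 of the 10 genes it was larger than counting alone gives. For Mief2, with the fewest reads, counting alone gives 5.37% and the spread was 5.05%. Of the 10 estimates 7 were above 0 and the median log2 fold change was 0.026, beside 56.7% above 0 and a median of 0.012 over all tested genes. With quantile normalization 5 of 10 were above 0, and without DoxSa 1 also 5.

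**Figure D3:**
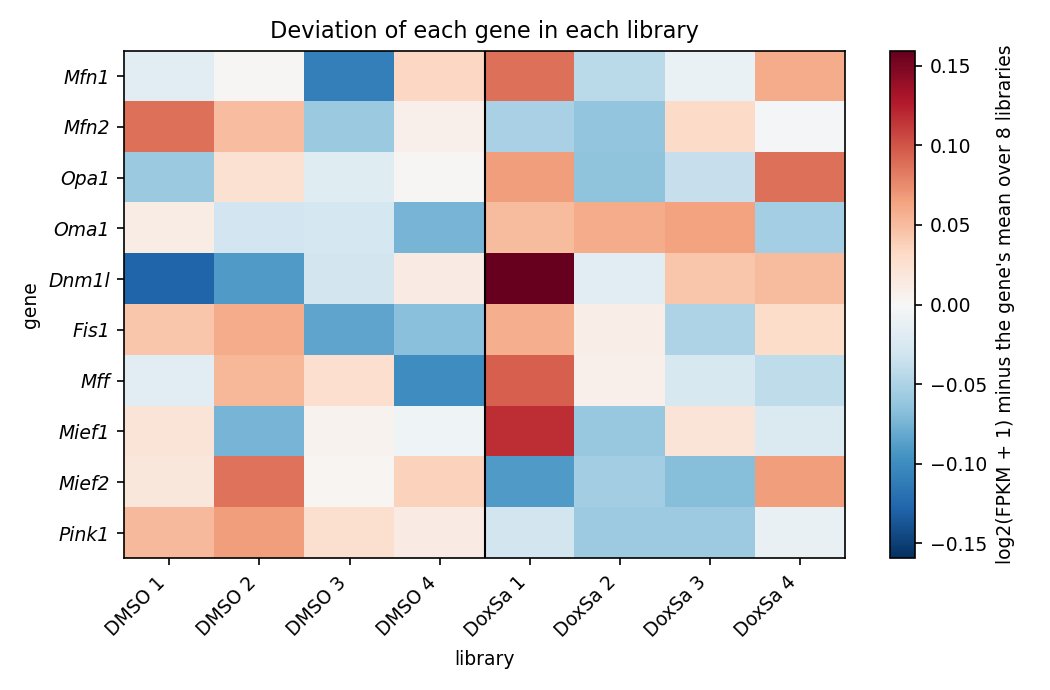
Deviation of each gene (rows) in each library (columns) from its own mean over the 8 libraries, in log2(FPKM + 1), red above and blue below the mean; the vertical line divides DMSO from DoxSa. Dnm1l and Pink1 differ most in colour between the sides, and DoxSa 1 is red for 7 of the 10 genes.

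Wider lists of mitochondrial genes, fixed by name, gave the setting of these values. Of 137 tested genes around the fusion and fission machinery, 4 rose and 0 fell (2.92% called, beside 5.9% of all tested genes), with 17 at an unadjusted p under 0.05. The 4 were Sqstm1, Atf4, Ddit3 and Eif2ak2. Of 13 tested regulators of fusion, among them the inner membrane proteases and the prohibitins, none was called by limma (1 at an unadjusted p under 0.05), and their median log2 fold change was 0.036. Yme1l1, the gene of the protease that cuts OPA1 alongside OMA1, measured 27.1, 29.6, 31.1 and 33.1 FPKM in DMSO 1 to 4 and 35.7, 30.7, 30.7 and 32.98 FPKM in DoxSa 1 to 4. Its log2 fold change was 0.10 ± 0.064 (SE, 95% interval -0.036 to 0.24, limma adjusted p = 0.412). Of 13 tested regulators of fission none was called by limma (1 at an unadjusted p under 0.05), with a median of 0.0075. That 1, Ppp3ca, a calcineurin subunit gene, was called higher without DMSO 4. Likewise none was called of 12 tested genes of cristae organization and outer membrane assembly (0 at an unadjusted p under 0.05, median -0.021), of 12 tested genes of mitochondrial transport and tethering (1, median 0.037) and of 14 tested genes of mitochondrial biogenesis (0, median 0.024).

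Of 18 tested mitophagy genes 1 rose and 0 fell (5.56%, near the 5.9% of all tested genes). Sqstm1, which encodes the autophagy receptor p62, measured 80.5, 76.9, 78.2 and 75.7 FPKM in DMSO 1 to 4 and 114.1, 119.2, 106.4 and 105.8 FPKM in DoxSa 1 to 4. All DoxSa libraries were above all DMSO libraries, and the log2 fold change was 0.51 ± 0.042 (SE, limma adjusted p = 9.59e-05). Sqstm1 serves many kinds of autophagy and is also a target of the oxidative stress response. Ppargc1a, the gene of the biogenesis coactivator PGC-1 alpha, was below the minimum and not tested, at means of 0.325 FPKM in DMSO and 0.283 FPKM in DoxSa.

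OMA1 has a second substrate, DELE1, whose cleaved form activates the kinase HRI (Eif2ak1) and through it the transcription factor ATF4. The list around this relay held 8 tested genes: Dele1 and Eif2ak1, the other 3 kinases that feed ATF4 in parallel to HRI (Eif2ak2, Eif2ak3 and Eif2ak4), and the transcription factor genes Atf4, Atf5 and Ddit3. Of the 8, 3 rose (Atf4, Ddit3 and Eif2ak2) and 0 fell (37.5% called, beside 5.9% of all tested genes). The list was chosen with earlier results of these data known, so this share is a description. Dele1 measured 12.0, 12.6, 10.8 and 11.6 FPKM in DMSO 1 to 4 and 12.2, 10.9, 11.8 and 11.4 FPKM in DoxSa 1 to 4, with overlapping groups. Its log2 fold change was -0.019 ± 0.052 (SE, 95% interval -0.13 to 0.094, limma adjusted p = 0.890), and the sign turned without DMSO 2 (0.013) and without DoxSa 2 (0.0058). Eif2ak1 averaged 19.98 ± 0.307 FPKM (DMSO) and 20.5 ± 0.439 FPKM (DoxSa, SD, n = 4 each), and its log2 fold change was 0.038 (limma adjusted p = 0.593).

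Downstream, Ddit3, the gene of CHOP, measured 15.8, 17.3, 14.9 and 17.0 FPKM in DMSO 1 to 4 and 21.4, 21.4, 21.2 and 22.2 FPKM in DoxSa 1 to 4. Atf4 measured 118.0 to 125.7 FPKM in DMSO and 133.6 to 142.5 FPKM in DoxSa. For both genes every DoxSa library was above every DMSO library. Their log2 fold changes were 0.39 ± 0.047 and 0.18 ± 0.033 (SE, limma adjusted p = 8.80e-04 and 0.0113). Atf5 measured 78.1 to 88.2 FPKM in DMSO and 73.2 to 83.7 FPKM in DoxSa, and the groups overlapped (log2 fold change -0.040, limma adjusted p = 0.737). Eif2ak2, the gene of the double-stranded RNA sensor PKR, lies outside the relay from OMA1 to HRI and is also induced by interferons. It measured 15.5, 12.5, 13.01 and 17.0 FPKM in DMSO 1 to 4 and 21.4, 18.7, 19.2 and 18.6 FPKM in DoxSa 1 to 4. All DoxSa libraries were above all DMSO libraries. It rose by 0.41 ± 0.085 on the log2 scale (SE, limma adjusted p = 0.0183) and lost its call without DoxSa 1 (adjusted p = 0.0576) and with no filter on low values (adjusted p = 0.108).

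**Figure D4:**
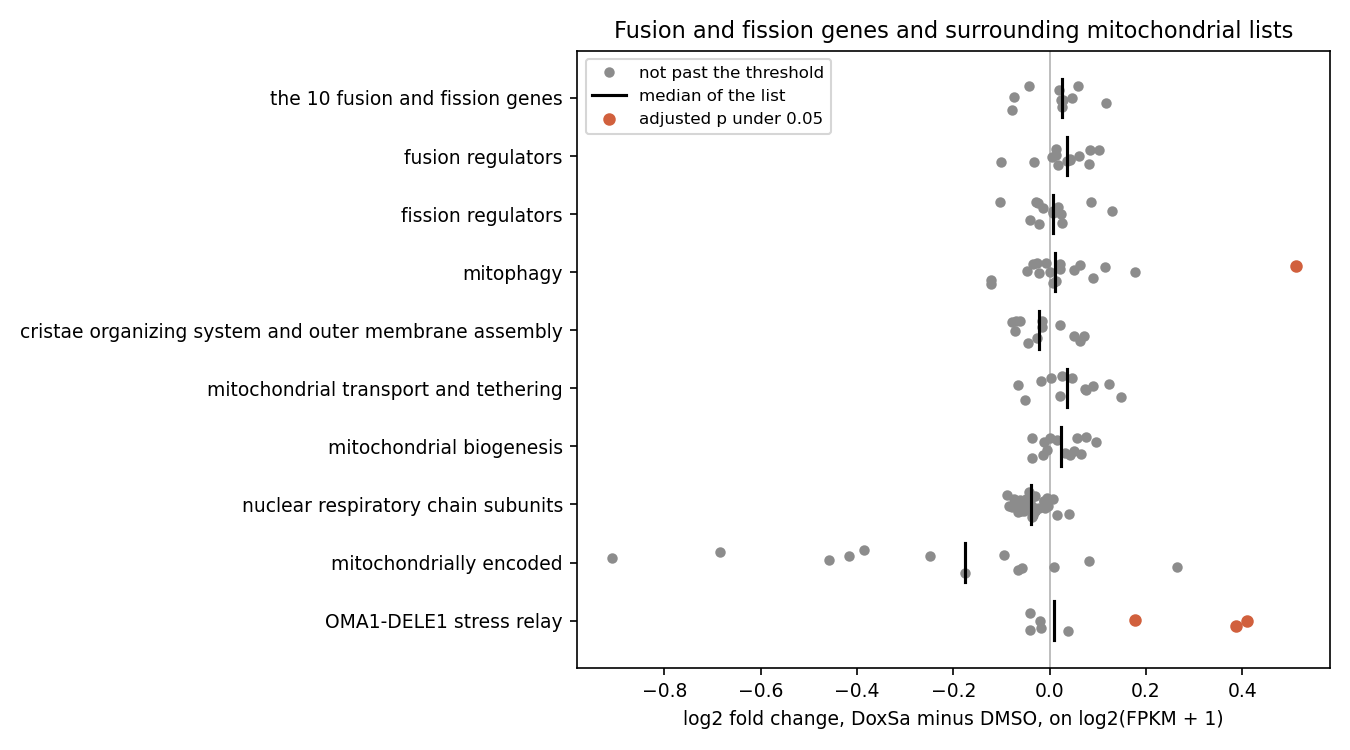
Log2 fold change, DoxSa minus DMSO, on the log2(FPKM + 1) scale (horizontal axis) for the 10 fusion and fission genes and for 9 surrounding lists (rows); each point is 1 tested gene, orange where the adjusted p is under 0.05, and the black line is the median of the list. The 4 orange points are Sqstm1 in the mitophagy list and Atf4, Ddit3 and Eif2ak2 in the list around the stress relay. The mitochondrially encoded genes spread most widely. The lowest of them, ATP8 (-0.91), rests on 1 library, at 142.4 FPKM in DMSO 4 and 10.1 to 23.5 FPKM in DMSO 1 to 3.

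Transcripts of the respiratory chain were examined as well, of which only those encoded in mitochondrial DNA are mitochondrial RNA. Of 34 tested nuclear genes of respiratory chain subunits none was called by limma (3 at an unadjusted p under 0.05). Their median log2 fold change was -0.039 and 3 of 34 were above 0, beside 6839 of 12060 over all tested genes. Of the 13 genes encoded in mitochondrial DNA none was called (4 at an unadjusted p under 0.05), with a median of -0.18 and 3 of 13 above 0. These 13 genes took 3.49 to 3.94% of the assigned reads in DMSO and 3.29 to 3.59% in DoxSa, with overlapping groups. The most abundant, COX1, measured 14120 to 14953 FPKM in DMSO and 13123 to 13847 FPKM in DoxSa, and its log2 fold change was -0.094 ± 0.046 (SE, limma adjusted p = 0.290). It was picked for its level after its values were seen. Between 1 and 3 of the mitochondrial genes were called lower under 8 alternatives: COX2, COX3, CYTB or ATP6. In DMSO, COX2, COX3 and ATP6 averaged only 133.7, 99.0 and 86.1 FPKM, against 14487 FPKM for COX1 and 3778 FPKM for CYTB. ATP6 was at 154.5 FPKM in DMSO 3 and at 59.6 to 68.3 FPKM in DMSO 1, 2 and 4. How fully the counting captured reads of these genes was not tested, which limits their calls and the share of reads above.

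The cultures held the markers of fat cells and of other cells. All 9 adipocyte markers were tested, with a summed level of 11100 to 11458 FPKM in DMSO and 11098 to 11817 FPKM in DoxSa. Fabp4, at 8512 to 8906 FPKM in DMSO and 8603 to 9187 FPKM in DoxSa, made up most of this sum and was the 1 marker of the 9 with a log2 fold change above 0. The median of the 9 was -0.069, and 1 was called, Retn, which was lower (11.1% called, beside 5.9% of all tested genes). Of 8 markers of brown and beige fat, whose cells are rich in mitochondria, 3 were tested and none was called by limma (2 at an unadjusted p under 0.05), and the summed level of the 8 was 153 to 192 FPKM in DMSO and 153 to 159 FPKM in DoxSa. Ucp1, the defining gene of these cells, was at 0 in 2 libraries and at no more than 0.0892 FPKM in any, and Cidea, Dio2, Ppargc1a and Ppara were below the minimum as well. Most of the sum came from Cox7a1, a respiratory chain subunit, at 142.7 to 179.3 FPKM in DMSO and 143.4 to 149.7 FPKM in DoxSa (log2 fold change -0.14, limma adjusted p = 0.225). Cox8b, another such subunit, was at 7.94 to 12.1 FPKM in DMSO and 5.46 to 9.15 FPKM in DoxSa (log2 fold change -0.39, limma adjusted p = 0.168), and the groups overlapped for both. All 7 macrophage markers were tested and 2 rose, Ptprc and Cd14 (28.6% called, beside 5.9% of all tested genes). All 7 had a log2 fold change above 0, with a median of 0.12, beside 56.7% above 0 over all tested genes. The summed level of the 7 was 5200 to 6072 FPKM in DMSO and 5790 to 6243 FPKM in DoxSa. Most of this sum came from Lyz2, at 4328 to 5100 FPKM in DMSO and 4795 to 5263 FPKM in DoxSa. Of 6 tested markers of smooth muscle and pericytes 5 fell (83.3% called, beside 5.9% of all tested genes). The summed level of the list of 7 was 593 to 663 FPKM in DMSO and 411 to 469 FPKM in DoxSa. Pdgfrb was the 1 of 5 tested fibroblast and progenitor markers that fell (20% called, beside 5.9% of all tested genes). Of 5 endothelial and 5 mesothelial markers 1 each reached the minimum and neither was called, and of 5 markers of dividing cells none was called by limma (0 at an unadjusted p under 0.05). In bulk samples fewer cells of a type and less RNA per cell cannot be told apart, and the part of cell makeup in the values of the 10 genes was not tested.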

How the data were processed

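Libraries (4 DMSO, 4 DoxSa) were grouped by their titles. The submitters' processing notes name HISAT2, HTSeq and GRCm39; versions, annotation and strandedness were not given in the sources used here, so a gene's reads may include those of an overlapping or antisense gene. The authors deposited 1 table of FPKM for 22962 genes, scaled by them to gene length and assigned reads. Whole reads were recovered from the steps of the values. Library totals lay between 39213008 and 41365861 reads, and 12060 of 12060 tested genes came out as whole reads within 0.001.

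The test was limma 3.58.1 (R 4.3.3) on log2(FPKM + 1) with an intensity trend, for genes that averaged 0.5 FPKM or more, two-sided, with Benjamini-Hochberg adjustment. Of 12060 genes 468 were called higher and 244 lower. SE and intervals are those of the moderated fit. No within-group pair agreed within sampling noise (lowest chi-square per degree of freedom 5.67). Tests and recovery were checked on simulated data. Other steps used Python 3.11.15. Of 207 list entries 206 matched, 17 through another symbol.

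The members and the lists were chosen with earlier results of these data known. Named genes were the 10 members, up to 3 called genes per direction of each surrounding list, fixed genes (Dele1, Eif2ak1, Yme1l1 and Ppargc1a; another is not reported here), the 3 genes most like the member with the smallest adjusted p, and markers; exceptions are stated. No coordinates are given, because the annotation used here is of another build. Alternatives were another pseudocount, 2 filters, 3 scalings, no trend, library weights, voom on recovered reads, a replicate block and leaving out each library.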

Additional observations from a re-analysis of the deposited data

Results flagged for a closer look

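Oma1 in DoxSa 4, at 0.910 FPKM, lay far below the other 3 DoxSa libraries, which measured 1.05 to 1.07 FPKM. The gap took up 0.874 of the range of the group, above Dixon's 95% limit for 4 values. Without DoxSa 4 the log2 fold change of Oma1 was 0.088 (limma adjusted p = 0.446) in place of 0.060. This was the only such library among 34 groups examined (17 named genes in each treatment), and chance flags about 1 group in 20. Other genes, such as the mitochondrially encoded ones, were not among the 17. Of those, ATP6 in DMSO 3 (154.5 FPKM, against 59.6 to 68.3 FPKM in DMSO 1, 2 and 4) also stood far from its group. So did ATP8 in DMSO 4 (142.4 FPKM, against 10.1 to 23.5 FPKM in DMSO 1 to 3).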

How the results depend on the processing

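None of the 10 genes was called under any of 18 alternatives, in 179 values in all (Oma1 had none at a minimum mean of 2 FPKM), and 174 of the 179 kept their direction. The 5 signs that turned were those of Opa1 (-0.0034) and Mff (-0.0035) with quantile normalization, of Mff without DMSO 4 (-0.011) and without DoxSa 1 (-0.0096), and of Mief1 without DoxSa 1 (-0.0069). Outside the 10, that of Dele1 turned without DMSO 2 (0.013) and without DoxSa 2 (0.0058). Over left-out libraries Mff lay between -0.011 and 0.040, Mief1 between -0.0069 and 0.052 and Dele1 between -0.056 and 0.013. Other estimates moved by over 1.5 times when 1 library was left out: Fis1 lay between 0.00048 (without DMSO 3) and 0.048 (without DMSO 2), Opa1 between 0.0019 (without DoxSa 4) and 0.053 (without DoxSa 2), Mfn1 between 0.018 (without DMSO 3) and 0.068 (without DoxSa 2), Mfn2 between -0.070 (without DMSO 3) and -0.021 (without DMSO 1) and Yme1l1 between 0.054 (without DMSO 1) and 0.15 (without DMSO 4). The median of the 10 lay between -0.0011 and 0.039.

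Over all tested genes, 158 were called higher and 108 lower with no filter on low values, and 377 lower by voom. Leaving out 1 library gave 233 to 490 higher and 152 to 235 lower, the counts being 247 and 154 when DoxSa 1 was left out and 233 and 152 when DoxSa 2 was. Leaving out DoxSa 3 gave 308 higher, and leaving out DMSO 2 gave 158 lower. Quantile normalization moved the share of calls that were higher from 65.7% to 54.9%. Of the surrounding genes, 1 was called lower with a minimum mean of 2 FPKM, with quantile normalization and with equal FPKM sums (COX3 each time), and 3 by voom (COX2, COX3 and CYTB). Left-out libraries gave 0 to 3 lower, namely COX2, COX3 and CYTB without DMSO 1, ATP6 without DMSO 3 and COX3 without DMSO 4. They gave 3 to 6 higher, with Eif2ak2 lost without DoxSa 1 and Ppp3ca (fission regulators) and Tax1bp1 (mitophagy) gained without DMSO 4. The cause was not tested.

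The values showed no sign that replicate numbers pair the libraries. Deviations of same-numbered libraries correlated at -0.099 to 0.065, and 1 of 4 numbers matched its own best. Weak correlation cannot show that same-numbered libraries came from different cultures or mice. With the number as a replicate block, 415 genes were called higher and 209 lower, none of the 10 among them, and 1 surrounding gene was called lower (COX2). Depth limits Oma1 and Mief2 most, at 322 to 568 reads per library.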

Other observations

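The deposited table carries annotation terms, which group the genes in another way; these terms were looked up after the values were seen. Of the 10 genes, 5 carry the term mitochondrial fusion (Mfn1, Mfn2, Opa1, Fis1 and Mff) and 4 the term mitochondrial fission (Dnm1l, Fis1, Mff and Mief1), so Fis1 and Mff stand under both. Of 17 tested genes annotated to fusion, 1 was called higher and 0 lower, beside 5.9% of all tested genes called. It was Mcl1, which encodes an anti-apoptotic protein of the BCL-2 family, and all 4 DoxSa libraries (38.8 to 40.4 FPKM) lay above the 4 DMSO libraries (32.7 to 35.9 FPKM), a log2 fold change of 0.17 ± 0.037 (SE, limma adjusted p = 0.0205). Of 14 tested genes annotated to fission, none was called by limma, with 3 at an unadjusted p under 0.05. The pathway term for mitophagy, also looked up, is carried by 4 of the 10 (Mfn1, Mfn2, Fis1 and Pink1). Of its 64 tested genes 3 were called higher and 0 lower (4.69%, beside 5.9% of all tested genes). They were Atf4, Sqstm1 and Trp53, the last with a log2 fold change of 0.16 (limma adjusted p = 0.0260).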
